A study of Mus musculus with 12 samples.

Results

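The 31 genes described here were listed by name for the synthesis, uptake, intracellular transport, esterification and efflux of cholesterol. In the count files 30 of them were matched to an Ensembl ID, out of 55401 IDs in all, and each of the 30 had enough counts to be tested among 16540 genes. *Hmgcs1*, which encodes the synthase that makes HMG-CoA, was not paired with an ID by the tables used and is given no value. The list does not hold every gene of the pathway, and genes outside it are not analysed here except for 22 related sterol genes described last.

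Cells build cholesterol from acetyl-CoA through mevalonate, isoprenoid diphosphates, squalene and lanosterol. The transcription factor SREBP2, held in the endoplasmic reticulum by INSIG proteins and escorted to the Golgi by SCAP when sterols are low, switches on nearly the whole enzyme series. Oxysterols activate the LXR nuclear receptors, which switch on the efflux transporters ABCA1 and ABCG1 and the ubiquitin ligase MYLIP. Adipocytes store a large pool of free cholesterol at the surface of their lipid droplets.

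Subcutaneous white fat (scWAT) was taken for RNA sequencing from 12 female mice that were 16 weeks old at the start, and each of the 4 groups held 3 mice. The control mice were wild type (*Jmjd1a* +/+), and the others were *Jmjd1a* HY/HY, a C57BL/6J knock-in made with CRISPR in which a histidine of the histone demethylase JMJD1A is replaced by tyrosine, so that the protein is made but its demethylase activity is lost. All mice were caged singly and kept at 30°C, thermoneutrality, for 1 week, and then either stayed at 30°C or were moved to 8°C for 1 week. The change is present in every cell of the animal from conception, the females came from 1 of the study's lines, and the comparison with 8°C asks how fat responds when beige adipocytes form in it.

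The libraries held between 13592629 and 26352081 counted read pairs (median 18130585), and every library from 8°C was smaller than every library from 30°C. Levels are given as CPM, the counts of a gene relative to the library's total as scaled by the TMM method. *Kdm3a*, which is *Jmjd1a*, ranged from 35.7 to 61.7 CPM over the 12 libraries and did not pass the test in any of the comparisons, and counts do not tell its alleles apart. A list of 8 white adipocyte markers summed to between 22600 and 50600 CPM in every library. The summed level of 6 beige adipocyte markers in wild-type mice was 36.1 to 69.7 CPM at 30°C and 6700 to 7720 CPM at 8°C, against 29.9 to 106 CPM and 415 to 1300 CPM in HY/HY mice. In replicate 2 of wild-type mice at 30°C, 7 skeletal muscle markers summed to 1290 CPM, against 3.12 to 22.6 CPM in the other libraries.

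Before the results, 4 promoters are shown, those of the members called changed by cold in wild-type mice. Each is the RefSeq sequence of GRCm38.p6 (mm10) from 250 bases before to 50 bases after the gene's start, written 5′ to 3′ on the strand of the gene. Capitals mark CCAAT, or ATTGG where the box lies on the other strand, the box bound by the factor NF-Y that often works beside SREBP2. The windows lie at chr17:12960676-12960975 (- strand) for *Acat2*, chr3:89454291-89454590 (+ strand) for *Pmvk*, chr19:6067801-6068100 (- strand) for *Tm7sf2* and chrX:72918271-72918570 (+ strand) for *Nsdhl*.
Acat2: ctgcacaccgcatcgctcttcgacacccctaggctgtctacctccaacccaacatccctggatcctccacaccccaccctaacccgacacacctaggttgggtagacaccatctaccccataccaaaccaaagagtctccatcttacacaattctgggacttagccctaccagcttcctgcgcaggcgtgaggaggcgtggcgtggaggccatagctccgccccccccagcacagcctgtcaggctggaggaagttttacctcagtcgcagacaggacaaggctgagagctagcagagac
Pmvk: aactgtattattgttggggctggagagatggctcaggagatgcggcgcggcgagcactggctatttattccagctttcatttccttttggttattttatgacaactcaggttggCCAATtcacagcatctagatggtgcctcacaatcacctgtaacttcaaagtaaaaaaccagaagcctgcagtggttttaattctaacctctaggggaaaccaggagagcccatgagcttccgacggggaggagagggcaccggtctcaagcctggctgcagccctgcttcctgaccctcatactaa
Tm7sf2: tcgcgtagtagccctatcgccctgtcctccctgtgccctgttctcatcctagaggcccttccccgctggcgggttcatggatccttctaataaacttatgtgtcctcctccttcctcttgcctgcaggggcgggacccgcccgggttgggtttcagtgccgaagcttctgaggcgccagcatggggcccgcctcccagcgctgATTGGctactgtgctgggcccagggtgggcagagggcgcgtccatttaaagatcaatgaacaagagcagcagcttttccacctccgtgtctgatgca
Nsdhl: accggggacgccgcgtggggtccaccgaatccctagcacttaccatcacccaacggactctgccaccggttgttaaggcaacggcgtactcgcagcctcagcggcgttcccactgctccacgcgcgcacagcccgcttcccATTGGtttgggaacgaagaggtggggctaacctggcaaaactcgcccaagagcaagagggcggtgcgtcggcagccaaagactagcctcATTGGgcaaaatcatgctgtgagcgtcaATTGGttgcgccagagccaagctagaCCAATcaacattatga

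The *Nsdhl* window held 4 such boxes, those of *Pmvk* and *Tm7sf2* held 1 each, and that of *Acat2* held 0. *Pmvk* has a further window at another start, with 0. The table held a promoter for 25 of the 31 members, in 32 windows, some of which overlap because they belong to neighbouring starts of 1 gene. CCAAT, searched on both strands, occurred in 20 of the 32 windows (62.5%), against 37.408% of all 32851 windows of this length. The box was in 8 of 10 windows of the enzymes after lanosterol and in 5 of 7 of the mevalonate and isoprenoid enzymes. The 4 windows of the efflux and LXR genes held 0. The sterol regulatory element, searched as TCACNCCAC on both strands, occurred in 1 of the 32 windows, that of *Hmgcs1*, and in 1.242% of all windows. The LXR element (AGGTCA, any 4 bases, AGGTCA) occurred in 0 of the 32 and in 5 of all. These letters are a description of the windows and not evidence of binding.

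In wild-type mice, the first comparison asked which genes of the pathway respond to 1 week at 8°C. 4 enzymes of synthesis rose, *Acat2* and *Pmvk* of the mevalonate steps and *Tm7sf2* and *Nsdhl* of the steps after lanosterol, by between 1.62-fold and 2.45-fold. No member was called lower. A gene was called when the quasi-likelihood test of edgeR, with Benjamini-Hochberg adjustment over all 16540 genes, gave an adjusted p under 0.05 and its fold change exceeded 1.5 in either direction. The 4 of 30 called higher are 13.3%, against 10.3% of all genes tested, and the 0 called lower stand against 6.84%, so the share called higher was near that of all genes. In either direction, 11 of 30 members had an unadjusted p under 0.05, against 38.4% of all genes. DESeq2 called 5 higher and 0 lower, against 11.6% and 7.24% of the genes to which it gave an adjusted p. With library totals in place of TMM, 3 members were called higher and 4 lower. That scaling called 1057 of all genes higher and 4092 lower, in place of 1707 and 1132.

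*Acat2* (ENSMUSG00000023832.14, chr17:12943042-12960725 in mm10) encodes the cytosolic thiolase that joins acetyl-CoA units at the head of the pathway. Its levels in wild-type mice were 92.7, 63.1 and 119.2 CPM at 30°C and 211.9, 209.9 and 170.6 CPM at 8°C. The lowest cold library lay above the highest library at 30°C. The log2 fold change was 1.11 (SE 0.33, adjusted p = 0.0292). *Acat2* has a close neighbouring copy in the mouse genome, and read pairs that aligned to both were not counted, so its level is uncertain.

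*Pmvk* (ENSMUSG00000027952.16, chr3:89454541-89469014 in mm10) encodes phosphomevalonate kinase. In wild-type mice it measured 63.9, 50.1 and 93.7 CPM at 30°C and 219.5, 182.3 and 107 CPM at 8°C. The groups did not overlap, but the third cold library stood close to the highest library at 30°C. Its log2 fold change was 1.29 (SE 0.35, adjusted p = 0.0208).

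*Tm7sf2* (ENSMUSG00000024799.16, chr19:6062821-6067850 in mm10), which encodes a sterol 14-reductase acting after lanosterol, was at 10.5, 12.9 and 16.6 CPM at 30°C and at 23.1, 23.2 and 18.4 CPM at 8°C in wild-type mice. Each cold library again lay above each library at 30°C. The change was 0.70 on the log2 scale (SE 0.18, adjusted p = 0.0168), the smallest of the 4.

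*Nsdhl* (ENSMUSG00000031349.4, chrX:72918521-72958528 in mm10) encodes the X-linked sterol dehydrogenase that helps to remove the methyl groups at carbon 4 of lanosterol. Its wild-type levels were 38.3, 34.1 and 55.9 CPM at 30°C and 92.8, 99.6 and 98.8 CPM at 8°C. The 3 cold libraries were tightly grouped and far above the others. The log2 fold change of 1.18 (SE 0.24, adjusted p = 0.00485) was the only one called whichever library was left out. Without replicate 1 or replicate 2 of wild-type mice at 30°C, or without replicate 1 or replicate 2 at 8°C, *Nsdhl* was the 1 member called, and the counts without the other libraries were between 3 and 6. Over these fits the number of all genes called higher ran from 1356 to 1869. Replicate 2 at 30°C is the library with the high skeletal muscle markers, and without it the log2 fold change of *Nsdhl* was 1.04, with an adjusted p of 0.0244.

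**Figure D1:**
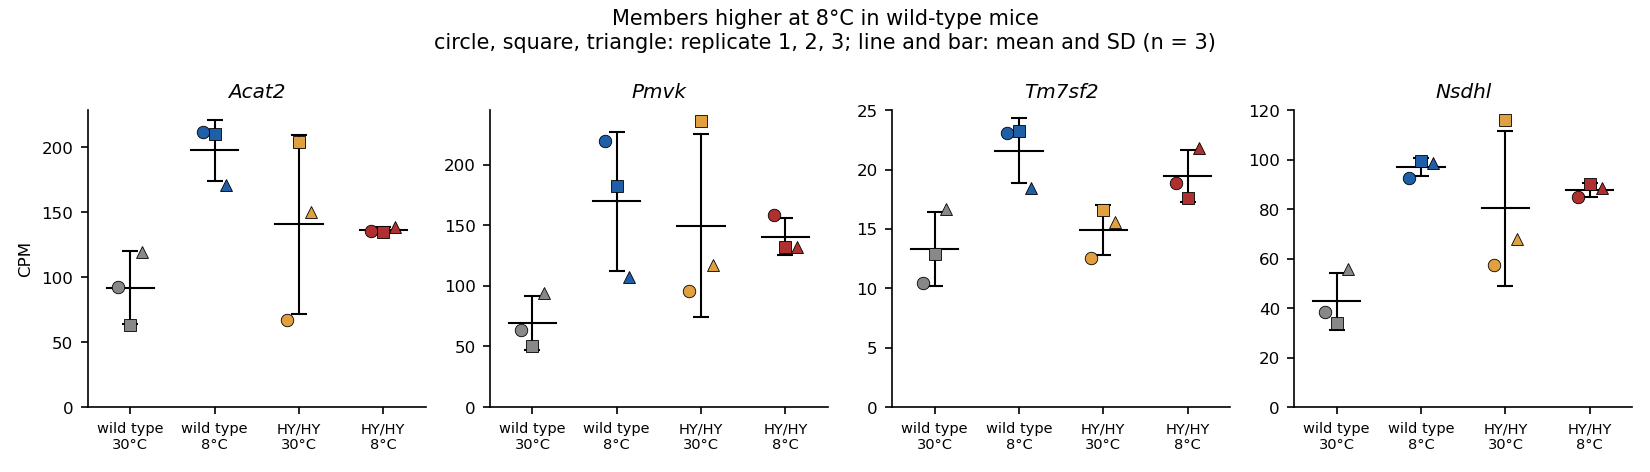
Levels in CPM (vertical axes) of the 4 enzymes called higher at 8°C in wild-type mice, in the 12 libraries by group (horizontal axes), with symbols for the replicates and lines and bars for mean and SD of 3 mice. For each enzyme the wild-type libraries at 8°C lie above those at 30°C, while for *Acat2*, *Pmvk* and *Nsdhl* the HY/HY libraries at 30°C span a wide range (57.3 to 116 CPM for *Nsdhl*) around those at 8°C (84.8 to 90.3 CPM).

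In HY/HY mice none of these 4 enzymes was called. *Acat2* measured 67, 204 and 150.4 CPM at 30°C and 135.1, 134.3 and 138.8 CPM at 8°C, a log2 fold change of -0.05 (95% interval -0.75 to 0.66). *Pmvk* was at 95.7, 235.7 and 116.8 CPM at 30°C and 158.1, 131.9 and 131.6 CPM at 8°C, a change of -0.09 (-0.84 to 0.66). In both genes the cold libraries fell inside the spread of those at 30°C. *Nsdhl* was at 57.3, 116 and 67.8 CPM at 30°C and 84.8, 90.3 and 88.7 CPM at 8°C, a change of 0.13 (-0.38 to 0.64). *Tm7sf2* was at 12.5, 16.6 and 15.6 CPM at 30°C and 18.9, 17.6 and 21.8 CPM at 8°C, and its groups did not overlap, but its change of 0.38 had an adjusted p of 0.35.

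Over the whole list, 0 of 30 members were called by edgeR in HY/HY mice in either direction, where 0.181% of all genes were called higher and 0.0665% lower. At an unadjusted p under 0.05 there were 5, *Fdft1*, *Dhcr7*, *Insig1*, *Npc1* and *Nr1h3* (against 14.7% of all genes), and DESeq2 called 0 (against 1.62% higher and 0.678% lower). With the replicate number as a block, 128 of all genes (0.774%) were called higher and 32 (0.193%) lower in place of 30 and 11, and still 0 members. The members' median log2 fold change was -0.05, against -0.01 over all genes tested. It was -0.25 without replicate 1 and 0.30 without replicate 2 of these mice at 30°C, so its sign rested on which of those libraries was kept. In wild-type mice the members' median was 0.23, against -0.07 over all genes. Leaving out wild-type replicate 2 at 30°C gave 0.12 and leaving out replicate 3 gave 0.37, and it was -0.09 with library totals in place of TMM, a scaling that put the median of all genes at -0.41. Both comparisons of genotypes share libraries with both comparisons of temperatures, so that they are not independent of each other.

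The wild-type libraries at 8°C lay wholly above those at 30°C for 13 members (43.3%, against 20.7% of all genes) and wholly below for 4 (13.3%, against 22.7%). In HY/HY mice the cold libraries lay above for 2 members, *Tm7sf2* and *Npc1* (6.67%, against 9.33%), and below for 0 (against 9.00%). An exact permutation test of 3 libraries against 3 cannot give a p below 0.1, so that none of these separations passes 0.05 by itself.

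**Figure D2:**
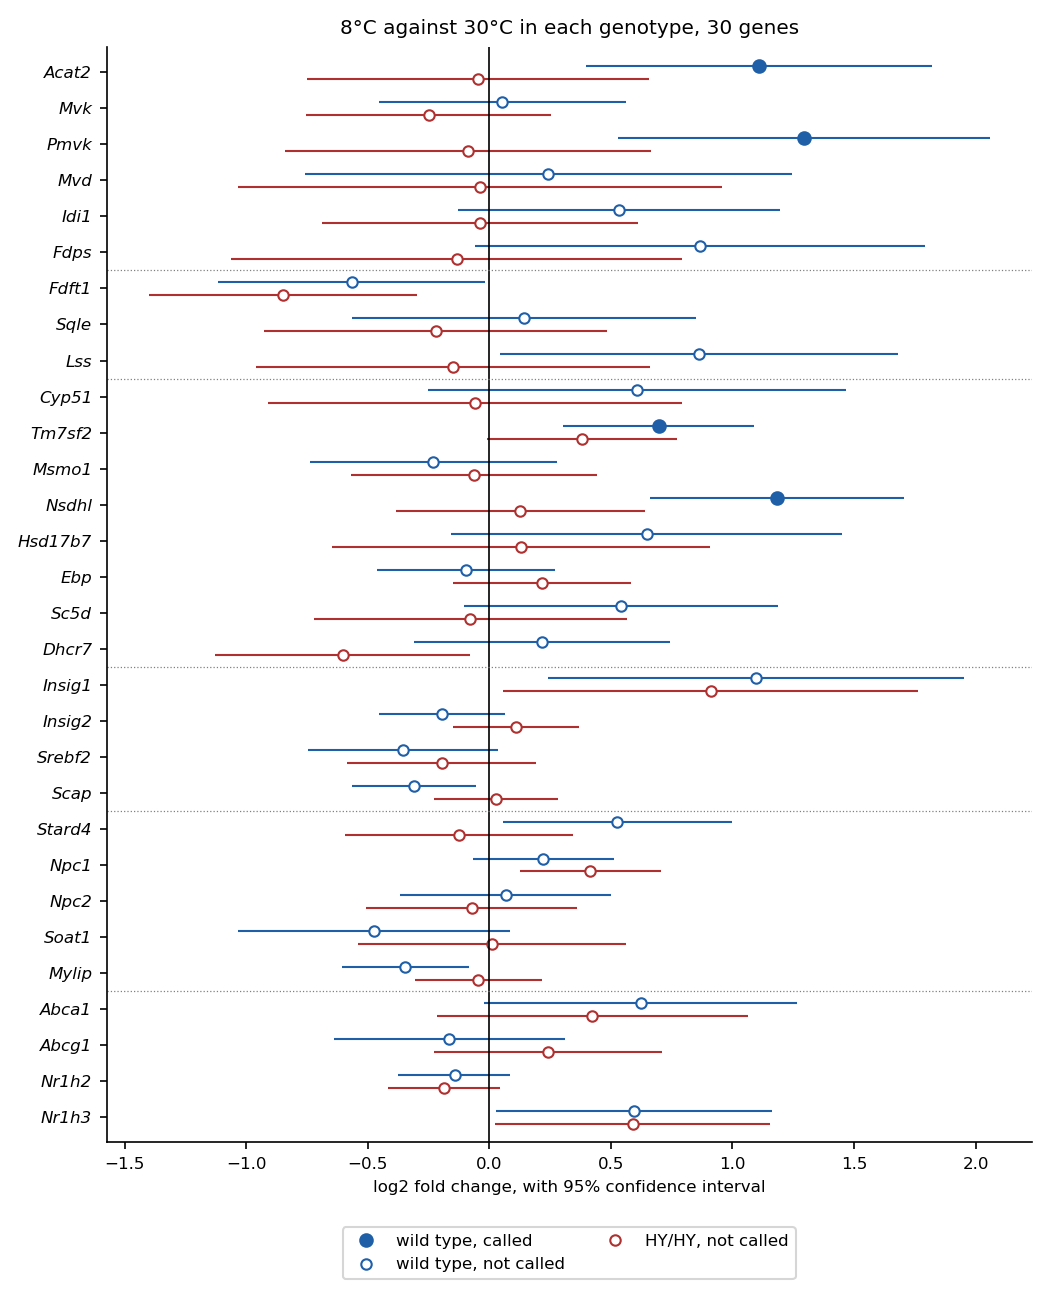
Log2 fold change of 8°C against 30°C (horizontal axis, bars are 95% confidence intervals) for the 30 members in order of role, in wild-type (blue) and HY/HY mice (red), with filled points where a member was called. The 4 filled points, *Acat2*, *Pmvk*, *Tm7sf2* and *Nsdhl*, are all in wild-type mice, and dotted lines part mevalonate, squalene and post-lanosterol enzymes, SREBP2 control, uptake and transport, and efflux and LXR genes.

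Whether a gene's response to 8°C differed with genotype was put to the test as an interaction, where an adjusted p under 0.05 sufficed for a call. It was called for 0 of 30 members by edgeR in either direction, against 0.169% of all genes higher and 2.07% lower, and for 0 by DESeq2, against 0.575% and 4.31%, so a difference in cold response was not shown for any member. At an unadjusted p under 0.05 there were 4, all with a lower response in HY/HY mice, against 15.0% of all genes in either direction. They were *Pmvk* at -1.38 (SE 0.49, adjusted p = 0.203), *Acat2* at -1.15 (SE 0.46, adjusted p = 0.256), *Nsdhl* at -1.05 (SE 0.33, adjusted p = 0.148) and *Dhcr7*, the reductase of the last step of one branch, at -0.82 (SE 0.34, adjusted p = 0.281). The intervals were wide, from -2.45 to -0.31 for *Pmvk*. Without replicate 1 of HY/HY mice at 30°C, 3 were called lower, *Acat2*, *Nsdhl* and *Dhcr7*, where 3.60% of all genes were. The estimates were negative for all 6 mevalonate and isoprenoid enzymes tested, all 3 squalene enzymes and 6 of 8 enzymes after lanosterol, with medians of -0.79, -0.36 and -0.57, against 0.04 over all genes. These counts of negative estimates were the same under each of the 4 other scalings and tools tried (DESeq2, its size factors in edgeR, library totals, and mitochondrial DNA left out), and the enzymes are correlated with each other. The median of all 30 members was -0.28. Among the mutant mice at 30°C, leaving out replicate 2 moved it to -0.07 and leaving out replicate 1 to -0.55, and without wild-type replicate 2 at 30°C it was -0.18. With library totals it was -0.07, where the median of all genes was 0.25.

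The enzymes tended to vary together between mice, and their median spread was widest in HY/HY mice at 30°C. The summed level of the 17 enzymes was 673, 1756 and 1157 CPM in that group, where replicate 2 was above each of the other 11 libraries. For the mutant group at 8°C the sums were 1060, 1065 and 1115 CPM. The wild-type sums were 823.7, 626.6 and 874.7 CPM at 30°C and 1198, 1150 and 1025 CPM at 8°C, so that each cold library was above each library at 30°C. By this sum, both groups at 8°C were thus tight and close to each other, and both groups at 30°C were spread. The sum is weighted to the enzymes with the most counts, and differences of single enzymes in opposite directions cancel in it.

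The median coefficient of variation of the 17 enzymes was 49.2% in HY/HY mice at 30°C, where the median over all genes tested was 18%. It was 23.5% in wild-type mice at 30°C, against 16.3% over all genes. At 8°C it was 9.49% in wild-type and 9.76% in HY/HY mice, below the 11.2% and 12.7% of all genes. These spreads come from 3 mice each and were not tested against each other. Replicate 2 of HY/HY mice at 30°C was the highest of the 12 libraries for 12 of the 17 enzymes. Wild-type replicate 2 at 30°C, the library with the high skeletal muscle markers, was the lowest for 8 enzymes, and HY/HY replicate 1 at 30°C for 6. *Cyp51*, the lanosterol demethylase, had the widest spread, with 28.4, 121 and 45.5 CPM in the mutant group at 30°C. *Mvd*, the decarboxylase that makes isopentenyl diphosphate, was at 9.53, 54.8 and 31.7 CPM there.

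Over the 12 libraries the median of the pairwise Pearson correlations between the 17 enzymes was 0.63, and it was 0.74 after each group's mean was taken away. The libraries share scaling, and these values are a description. In the 3 HY/HY mice at 30°C, the white adipocyte markers summed to 30900, 22600 and 50600 CPM and the macrophage markers to 473, 279 and 282 CPM. Mitochondrial DNA took 9.32%, 9.76% and 16.8% of the counts, and the mammary epithelium markers summed to 1570, 1640 and 591 CPM. Replicate 2 was thus lowest in the white adipocyte markers, and it was also the deepest of the 12 libraries, with 26352081 counts. The part of these in the spread of the enzymes was not tested.

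**Figure D3:**
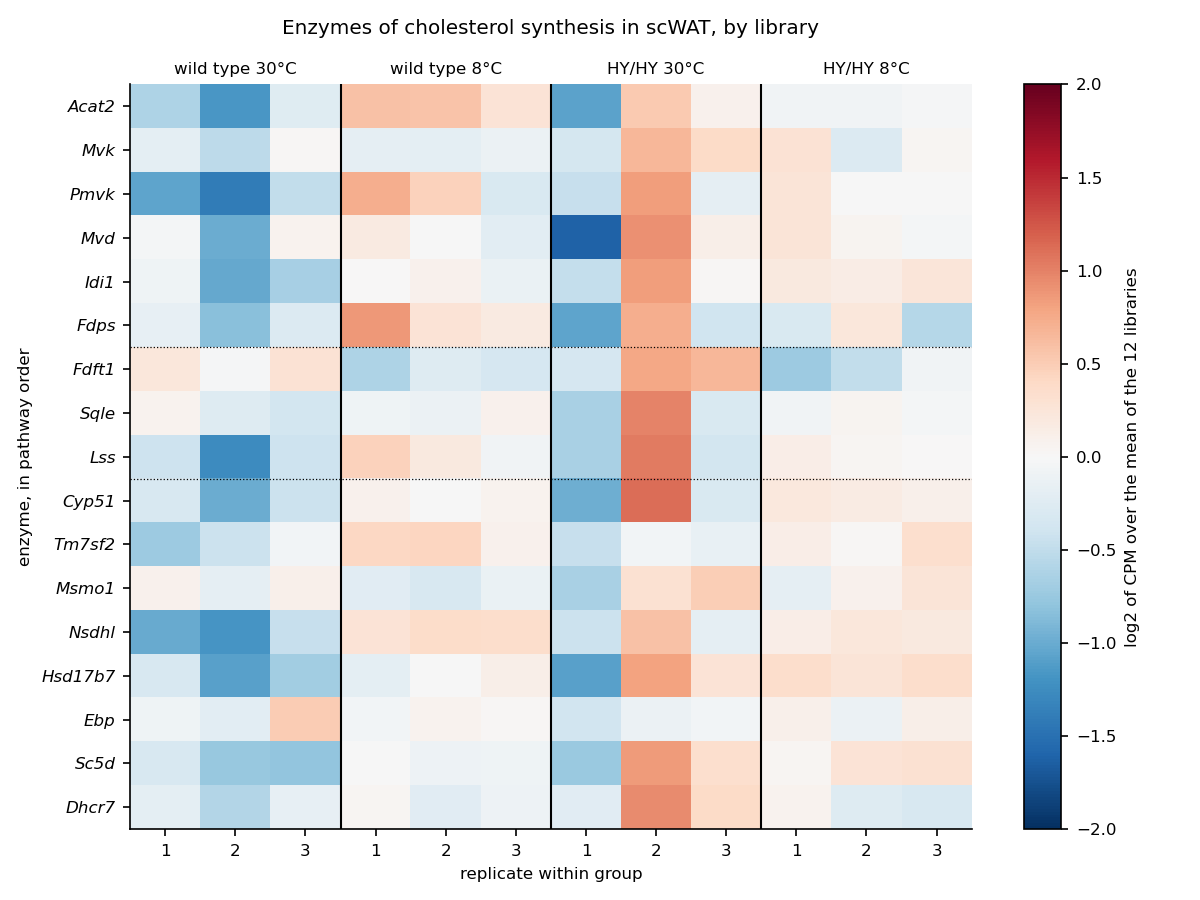
Level of each of the 17 synthesis enzymes (rows, in pathway order) in each library (columns, by group and replicate) as log2 of its CPM over its mean of the 12 libraries, with red above and blue below that mean. The column of HY/HY replicate 2 at 30°C is red for most enzymes (summed level 1756 CPM) and that of replicate 1 blue (673 CPM), as is that of wild-type replicate 2 at 30°C (627 CPM), while the columns at 8°C are pale.

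The remaining enzymes did not pass the test in any comparison, though for cold in wild-type mice *Lss* and *Cyp51* were called under 2 of 21 alternatives each and *Hsd17b7* under 1, and *Fdft1* was called lower there with library totals. *Fdft1*, squalene synthase, which commits isoprenoids to sterols, was the enzyme with the most negative cold estimate in both genotypes. It measured 137.4, 115.9 and 143.9 CPM at 30°C and 76.9, 98.1 and 93.2 CPM at 8°C in wild-type mice, a log2 fold change of -0.57 (SE 0.25, adjusted p = 0.121) with groups that did not overlap. In HY/HY mice its change was -0.85 (SE 0.25, adjusted p = 0.173), with overlap. *Lss*, lanosterol synthase, had a change of 0.86 (SE 0.38, adjusted p = 0.113) in wild-type and -0.15 in HY/HY mice. *Sqle*, the squalene epoxidase that is a rate-limiting step, gave 0.14 and -0.22. *Idi1*, *Mvk*, *Mvd*, *Cyp51*, *Dhcr7*, *Msmo1*, *Ebp*, *Hsd17b7* and *Sc5d* had wild-type cold estimates between -0.23 and 0.65. *Fdps*, farnesyl diphosphate synthase, was counted at between 0.93 and 3.49 CPM in the 12 libraries, and because near-identical copies of it exist in the genome its level is uncertain. Its cold estimates were 0.87 (SE 0.42, adjusted p = 0.154) in wild-type mice, with groups that did not overlap, and -0.13 in HY/HY mice.

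Per kilobase of the longest coding transcript, in wild-type mice at 30°C, *Sc5d*, the desaturase that puts in the double bond at carbon 5, stood highest among the 17 enzymes with a mean of 63.6 CPM per kb. *Pmvk* followed with 58 and *Fdft1* with 46.3, while *Idi1* was at 2.73 and *Hsd17b7* at 1.03. Of all 30 members, *Npc2*, the soluble lysosomal cholesterol carrier, was highest with 131 CPM per kb, and its cold estimates were 0.07 in wild-type and -0.07 in HY/HY mice.

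Among the genes of SREBP2 control, 0 of 4 were called in any comparison. Of all genes, at most 10.3% were called higher and 6.84% lower in a comparison, so 0 of 4 tells little. *Insig1* was called for cold in wild-type mice under some alternatives, and *Srebf2* and *Scap* were called lower there with library totals in place of TMM. *Insig1*, itself a target of SREBP2 that retains it, measured 189.3, 136.2 and 207.4 CPM at 30°C and 419.6, 376.8 and 343.4 CPM at 8°C in wild-type mice, and the groups did not overlap. Its log2 fold change was 1.10 (SE 0.39, adjusted p = 0.0612). Over 21 alternatives the adjusted p ran from 0.00332 to 0.18, and *Insig1* was called under 6 of them, the fit with a replicate block included. In HY/HY mice it was at 89.5, 266.7 and 398 CPM at 30°C and 376.6, 512 and 529.4 CPM at 8°C, a change of 0.91 (SE 0.39, adjusted p = 0.317). The interaction for *Insig1* was -0.19 (95% interval -1.38 to 1.01), which leaves room for a large difference in either direction. *Srebf2*, which encodes SREBP2, and *Scap* had wild-type cold estimates of -0.36 and -0.31, and *Insig2* of -0.20.

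Among the genes of uptake, transport and esterification, 0 of 5 were called, though *Mylip* and *Stard4* were under some alternatives. With at most 10.3% of all genes called higher and 6.84% lower in a comparison, 0 of 5 tells little. *Mylip*, the ligase that marks lipoprotein receptors for degradation, passed the adjusted p in 1 comparison. At 8°C it measured 51.8, 59.8 and 51.1 CPM in wild-type and 82.2, 67.6 and 82.3 CPM in HY/HY mice. Every mutant library was above every wild-type library, and the log2 fold change was 0.51 (SE 0.12, adjusted p = 0.0253), a fold change of 1.43 that lies under the limit of 1.5. At 30°C the levels were 68.5, 69.2 and 69 CPM in wild-type and 68.4, 81.9 and 89.1 CPM in HY/HY mice, with an estimate of 0.21 (adjusted p = 0.366). *Npc1*, the membrane transporter of lysosomal cholesterol, had cold estimates of 0.22 in wild-type and 0.42 in HY/HY mice (adjusted p = 0.243 and 0.197). *Stard4*, a sterol carrier of the cytosol, had 0.53 in wild-type mice (adjusted p = 0.0946). *Soat1*, which esterifies cholesterol in many tissues, had -0.48 (adjusted p = 0.194).

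Among the efflux and LXR genes, 0 of 4 were called, though *Abca1* and *Nr1h3* were under some alternatives. Here too 0 of 4 tells little beside the at most 10.3% of all genes called higher and 6.84% lower. *Abca1*, which loads cholesterol onto apolipoproteins, measured 99.8, 105.1 and 99.4 CPM in wild-type and 142.3, 129.8 and 185.8 CPM in HY/HY mice at 8°C. The levels at 30°C were 77.8, 78.8 and 40.9 CPM in wild-type and 79.9, 90.5 and 171 CPM in mutant mice. The mutant libraries lay above the wild-type libraries at each temperature, with estimates of 0.59 (SE 0.29, adjusted p = 0.265) at 8°C and 0.79 (SE 0.30, adjusted p = 0.189) at 30°C. With only the libraries of the comparison, *Abca1* was called at 8°C (0.60, adjusted p = 0.0185), the 1 of 21 alternatives in which it was. *Abcg1*, the other transporter, had 0.48 at 8°C (adjusted p = 0.221) and 0.07 at 30°C. *Nr1h3*, which encodes LXR alpha, had cold estimates of 0.60 in wild-type and 0.59 in HY/HY mice (adjusted p = 0.114 and 0.327), and *Nr1h2*, LXR beta, of -0.14 and -0.18. *Nr1h3* was called in wild-type mice under 2 of 21 alternatives, with the replicate number as a block (0.65, adjusted p = 0.0165) and without wild-type replicate 3 at 30°C (adjusted p = 0.02).

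Macrophages of fat also express *Abca1*, *Abcg1* and *Nr1h3*. The summed level of 12 macrophage markers at 8°C was 199 to 205 CPM in wild-type and 309 to 424 CPM in HY/HY mice. There 4 of the 12 were called higher, against 1.51% of all genes. At 30°C the sum was 242 to 252 CPM and 279 to 473 CPM, with 0 called, against 0.562% of all genes higher and 0.435% lower. The part of macrophages in the genotype differences of these genes and of *Mylip* was not tested. Of the 8 white adipocyte markers, 2 were called higher in HY/HY than in wild-type mice at 8°C, against 1.51% of all genes. By cold in wild-type mice 2 of the 8 were called lower, against 6.84%, and the part of white adipocytes was not tested. In bulk tissue, a change in the number of cells of a type and a change in RNA per cell cannot be told apart. Mammary epithelium, which also makes lipid, summed to 2180 to 3980 CPM over its 10 markers at 30°C in wild-type mice and 1500 to 1630 CPM at 8°C. By cold 2 of 8 tested markers were called lower there, against 6.84% of all genes. In HY/HY mice the sums were 591 to 1640 CPM at 30°C and 977 to 1440 CPM at 8°C. At 30°C they were thus below those of wild-type mice, with 0 markers called between genotypes. The part of mammary epithelium in the results was not tested.

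Between the genotypes, 0 of 30 members were called by edgeR at 8°C, against 1.51% of all genes higher and 4.34% lower, and DESeq2 called 0, against 2.46% and 5.74%. At an unadjusted p under 0.05 there were 3, *Mylip*, *Insig2* and *Abcg1*, against 22.4% of all genes. The libraries did not overlap for 8 members that were higher in HY/HY mice (26.7%, against 16.4% of all genes) and for 3 that were lower, *Acat2*, *Nsdhl* and *Nr1h2* (10%, against 19.0%). The median of the members was 0.09, against 0.01 over all genes.

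At 30°C also, 0 of 30 were called by edgeR, against 0.562% of all genes higher and 0.435% lower. At an unadjusted p under 0.05 there were 10, of which 9 had a higher estimate in HY/HY mice and *Scap* a lower one, against 18.6% of all genes in either direction. DESeq2 called 3 higher, *Pmvk*, *Nsdhl* and *Sc5d*, against 2.31% of the genes to which it gave an adjusted p, and 0 lower, against 1.96%. Without replicate 1 of HY/HY mice at 30°C, edgeR called 4 higher, *Nsdhl*, *Hsd17b7*, *Sc5d* and *Dhcr7*, where 1.61% of all genes were. The libraries did not overlap for *Pmvk*, *Nsdhl* and *Abca1*, all higher in the mutant (10%, against 7.66%), and for 0 in the other direction (against 10.6%). *Nsdhl* had the estimate nearest to a call, 0.91 (SE 0.24, adjusted p = 0.0806). Estimates were above 0 for 24 of the 30 members, with a median of 0.37 against -0.01 over all genes (23 members with library totals). The median was 0.13 when the mutant replicate 2, the library with the high enzymes, was left out, 0.61 without mutant replicate 1 and 0.22 without wild-type replicate 2.

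**Figure D4:**
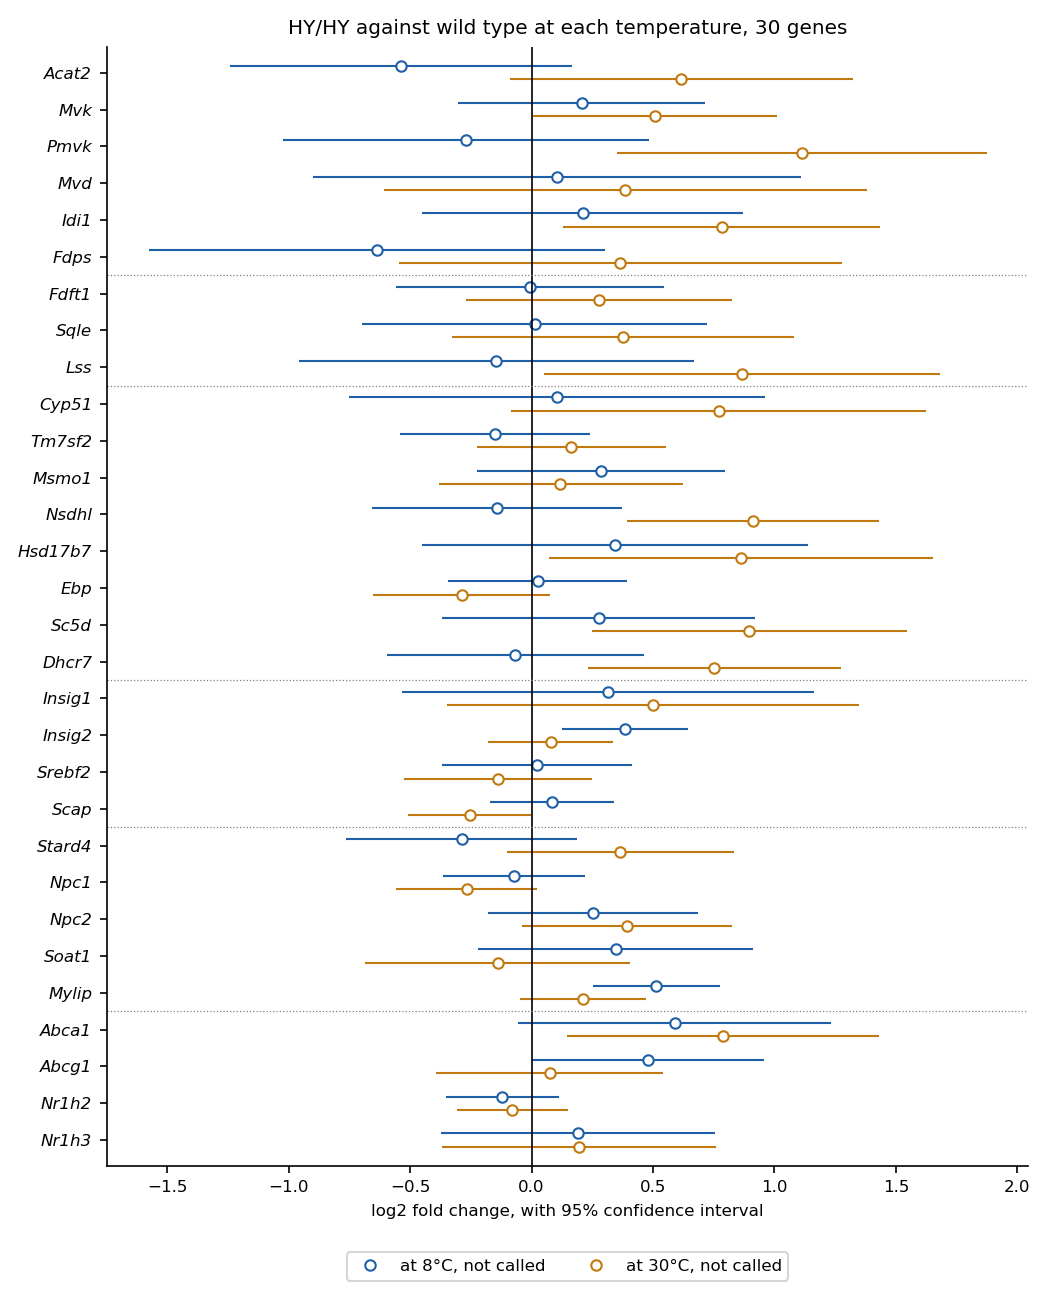
Log2 fold change of HY/HY against wild-type mice (horizontal axis, bars are 95% confidence intervals) for the 30 members, at 8°C (blue) and 30°C (orange). All points are open because 0 members were called, and at 30°C most synthesis enzymes lie to the right of 0 with wide intervals (*Pmvk* at 1.11, *Nsdhl* at 0.91).

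Of the 22 related sterol genes, which were listed with the pathway but are not among the 31, 5 were called higher at 8°C in wild-type mice (22.7%, against 10.3% of all genes) and 0 lower (against 6.84%). Of these calls, those of *Lpcat3* and *Nus1* were lost with library totals. *Erg28*, *Stard3* and *Rnf145* were each called lower by cold in wild-type mice under 1 of 21 alternatives. *Lipa*, the lysosomal acid lipase that frees cholesterol from its esters, measured 37, 33.2 and 39.4 CPM at 30°C and 96, 114.7 and 98.2 CPM at 8°C, a log2 fold change of 1.49 (SE 0.13, adjusted p = 2.82e-05). In HY/HY mice it was at 45.1, 39.6 and 52.8 CPM at 30°C and 66.1, 60 and 71.3 CPM at 8°C, a change of 0.52 (SE 0.13, adjusted p = 0.113). These groups did not overlap. Over 21 alternatives the adjusted p of this change ran from 0.0139 to 0.318, and *Lipa* was called under 1 of them. Each mutant library was below each wild-type library at 8°C. *Lipa* was the 1 related gene called between genotypes there (4.55%, against 4.34% of all genes called lower), at -0.65 (SE 0.12, adjusted p = 0.0113). That call was lost with library totals and without wild-type replicate 2, mutant replicate 1 or mutant replicate 2 at 8°C. Its interaction was also called, at -0.97 (SE 0.18, adjusted p = 0.0218), and that call was lost under 6 of 20 alternatives, with adjusted p up to 0.065: without wild-type replicate 1 or 2 at 30°C, wild-type replicate 2 or 3 at 8°C, or mutant replicate 1 or 2 at 8°C. Macrophages also express *Lipa*, and at 8°C their summed markers were higher in HY/HY mice (309 to 424 CPM) than in wild-type mice (199 to 205 CPM). The summed beige adipocyte markers there were lower in HY/HY mice (415 to 1300 CPM) than in wild-type mice (6700 to 7720 CPM). The part of either cell type in the differences of *Lipa* was not tested.

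The others called in wild-type mice were *Gramd1b*, a carrier of cholesterol from the plasma membrane, at 1.43 (SE 0.30, adjusted p = 0.00593), *Stard5*, a sterol-binding protein, at 0.98 (SE 0.17, adjusted p = 0.00232), *Lpcat3*, a phospholipid acyltransferase under LXR, at 0.83 (SE 0.15, adjusted p = 0.00276), and *Nus1*, a subunit of the enzyme that makes dolichol, at 0.72 (SE 0.15, adjusted p = 0.00607). In HY/HY mice 0 of the 22 were called by edgeR, against 0.181% of all genes higher and 0.0665% lower. At an unadjusted p under 0.05 there were 5 of the 22, against 14.7% of all genes, and *Gramd1b* had an estimate of 1.08 (adjusted p = 0.149). With the replicate number as a block *Gramd1b* was called (adjusted p = 0.0166), 1 of the 3 alternatives out of 21 in which it was. Between genotypes at 30°C 0 of the 22 were called, against 0.562% of all genes higher and 0.435% lower. There 4 had an unadjusted p under 0.05, against 18.6% of all genes. *Rnf145*, a sterol-sensing ubiquitin ligase, passed the adjusted p but not the fold limit, with -0.48 by cold in wild-type mice and 0.48 between genotypes at 8°C. Of the 21 alternatives that kept the fold limit, it was called under 1 in each of these comparisons.

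**Figure D5:**
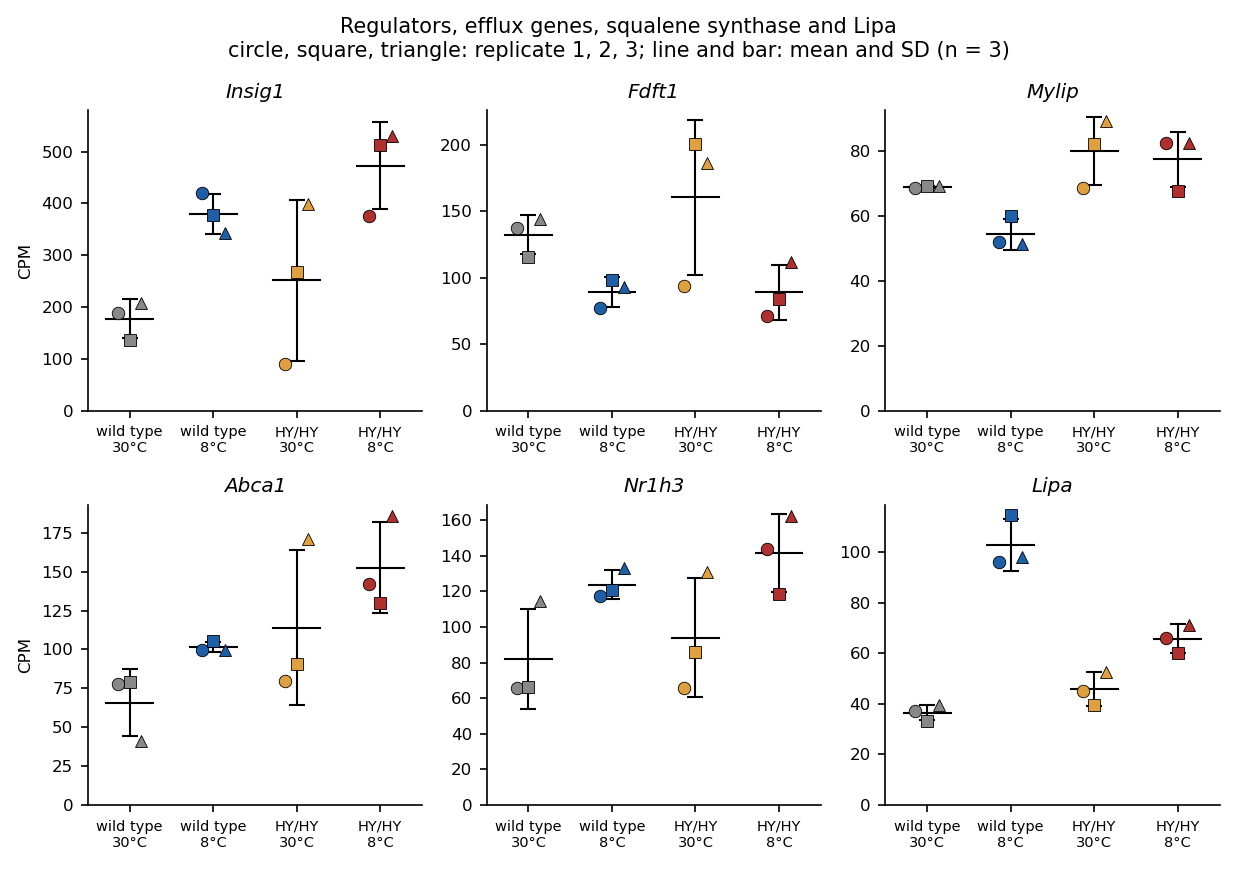
Levels in CPM (vertical axes) of *Insig1*, *Fdft1*, *Mylip*, *Abca1*, *Nr1h3* and *Lipa* in the 12 libraries by group (horizontal axes), with symbols for the replicates and lines and bars for mean and SD of 3 mice. *Lipa* is highest in wild-type mice at 8°C (96 to 114.7 CPM), *Mylip* is lowest there (51.1 to 59.8 CPM), and *Insig1* spreads from 89.5 to 398 CPM in HY/HY mice at 30°C.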

How the data were processed

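RNA of scWAT was sequenced from 12 mice, 1 library each, with TruSeq libraries and paired reads of 50 bases. The authors trimmed the reads with fastp, aligned them to mm10 with STAR and, per the labels' processing notes, used FastQC and StringTie. The deposited values used here are raw counts of read pairs per gene and strand, with no normalization or filter. The counts of the strand that held 95.5% to 96.2% of pairs were taken. Entries that name no gene held 55.8% to 63.5% of all pairs and were left out. They include the pairs aligned to several places, 26.7% to 32.2% of all pairs, so genes with close copies are undercounted. Gene symbols came from GENCODE M1 and RefSeq tables, which named 32589 of 55401 IDs. Symbols older than the current ones were matched through RefSeq synonyms. Coordinates and promoters are RefSeq GRCm38.p6, and lengths are the longest coding transcript of GENCODE M1.

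In R 4.3.3, edgeR 4.0.16 kept 16540 genes by filterByExpr and fitted each group its own mean by quasi-likelihood, with TMM factors of 0.859 to 1.17 and 8 residual degrees of freedom (biological coefficient of variation 20.7%). The 5 comparisons were tested two-sided with Benjamini-Hochberg adjustment over all genes. The script was tested on simulated data. Alternatives were DESeq2 1.42.0, other scalings, filters, strands, limits, a replicate block and leaving out libraries. Where the alternatives of a single gene are counted, out of 21 or 20, those with other limits are not among them. The genes described in full are all members called in any comparison, with their values in every library, the remaining members are given by their estimates, and of the 22 related genes those called in any comparison are named. *Insig1*, *Fdft1*, *Mylip*, *Abca1*, *Cyp51*, *Mvd* and *Rnf145* were described in more detail after their values were seen. The members and lists were chosen with earlier results of these data known. Deviations from the group means correlated above 0.1 for all 3 same-numbered pairs of HY/HY libraries (r from 0.112 to 0.303), and the value with the block is given beside that comparison where a call changed. Between any other 2 groups at least 1 pair was at 0.1 or below. Replicates are single mice as the labels give them. The p-values of the main fit rest on 1 spread per gene, taken between the 3 mice of each group over all 12 libraries. Those for cold in wild-type mice thus also carry the spread of the HY/HY groups, which was wide for the enzymes at thermoneutrality. With only the libraries of the comparison, 7 members were called there in place of 4.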

Additional observations from a re-analysis of the deposited data

Results flagged for a closer look

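*Lipa* responded differently to cold in the genotypes by the test of the difference itself. Its cold response in *Jmjd1a* HY/HY mice minus that in wild-type mice was -0.972 on the log2 scale (edgeR's quasi-likelihood test, adjusted p = 0.0218). The adjusted p ranged from 9.99e-05 to 0.065 over 20 alternatives, and 6 of them no longer passed 0.05, those without wild-type replicate 1 or 2 at 30°C, wild-type replicate 2 or 3 at 8°C, or HY/HY replicate 1 or 2 at 8°C. No member of the list passed the same test.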

How the results depend on the processing

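For cold in wild-type mice, the 4 members called higher became 1 at an adjusted p under 0.01, 7 with only the libraries of the comparison, and 1 to 6 with 1 library left out. With library totals in place of TMM 4 members were called lower, *Fdft1*, *Srebf2*, *Scap* and *Mylip*, where 4092 of all genes were. *Tm7sf2*, *Lpcat3* and *Nus1* were no longer called with it. That scaling put the median of all genes at -0.407 in this comparison and at 0.249 in the interaction. Of the 21 alternatives that keep the limits of a call, *Nsdhl* was called under each, *Tm7sf2* and *Acat2* were lost under 5 and *Pmvk* under 4. At an adjusted p under 0.01 these 3 were lost as well, and *Nsdhl* was the 1 left. Of the related genes, *Erg28*, *Stard3* and *Rnf145* were each called lower under 1 of 21. For HY/HY against wild-type mice at 8°C, the 0 called higher became 1 with library totals, 1 without a fold limit, 1 with only the libraries of the comparison and 0 to 1 with 1 library left out. At 30°C the 0 called higher, against 93 of all genes, became 3 with DESeq2 (367) and 2 without a filter on low counts (284). With 1 library left out there were 0 to 4 (5 to 271 of all genes). For the interaction 0 to 3 members were called lower with 1 library left out (64 to 606 of all genes). No named gene changed sign while called.

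With the replicate number as a replicate block, 6 members were called higher by cold in wild-type mice, where 1803 of all genes were. *Insig1* and *Nr1h3* were added, and of the related genes *Gramd1b* by cold in HY/HY mice. No other call of a named gene changed with it. The labels give no meaning to the numbers. Of 18 pairs of libraries with the same number, 11 had deviations from the group means that correlated above 0.1 (r from -0.069 to 0.346). A best match was sought among the 3 libraries of each other group, and 23 of 36 were to the same number. The main fit leaves the numbers out. With 3 mice per group the SE of the log2 fold change between 2 groups ran from 0.11 for *Nr1h2* to 0.46 for *Mvd*, and this spread between mice limits the comparisons.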
